A study of Mus musculus musculus x Mus musculus castaneus with 12 samples.

Results

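A set of 10 genes of the ATF4 stress response and of one-carbon metabolism was followed in mouse embryonic stem (ES) cells with and without *Kdm6a*, the X-linked gene for a demethylase of lysine 27 on histone H3. They are *Aldh1l2*, *Mthfd2*, *Shmt2*, *Phgdh*, *Psat1*, *Asns*, *Atf4*, *Ddit3*, *Trib3* and *Chac1*, taken by symbol, and they make up 10 of the 24346 genes with values. The set was chosen by the level of *Aldh1l2* in knockout (KO) clones of the BC cross, where it was higher than in wild type (wt). Values of the 10 genes in those clones are therefore a description without a test. The cells were F1 hybrids of the strains BL6 and cast, in which BC denotes a BL6 mother and CB a cast mother. RNA-seq covered wt cells with 2 samples each from the male BC, female BC and male CB lines. Male KO cells came from 3 clones a cross, named ΔE1, ΔE3 and ΔP4 in BC, and in CB named ΔP2.1 for the promoter and ΔE2.5 and ΔE2.7 for the exons. ΔE clones carry a CRISPR deletion of *Kdm6a* exons and ΔP clones one of its promoter. By the study's account, ΔE1 and ΔE3 came from a single editing event and share a deletion of *Sh3kbp1*, *Map3k15* and *Pdha1*, and the CB wt line carried an actin-GFP transgene. All cells grew in serum with LIF and added non-essential amino acids on mouse embryonic fibroblast feeders, which were thinned by plating on gelatin. The study calls the wt samples biological replicates without saying whether they were separate clones or cultures, and p-values measure the spread between these samples only.

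Cells that run short of an amino acid, or that carry unfolded protein or damaged mitochondria, phosphorylate the initiation factor eIF2. General translation then falls while the transcription factor ATF4 is made from its mRNA, so the mRNA level of *Atf4* alone does not measure the protein. ATF4 turns on genes for amino acid import and synthesis, for tRNA charging and for serine and folate metabolism, and later *Ddit3* (CHOP), a factor linked to cell death. In the one-carbon branch, PHGDH and PSAT1 build serine, SHMT2 and MTHFD2 pass its carbon to mitochondrial folate, and ALDH1L2 burns formyl-folate to carbon dioxide with gain of NADPH. Mouse ES cells also draw one-carbon units from threonine.

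Depth ranged from 49975599 to 89070402 fragments per sample, lower in CB (at most 53407103) than in BC (at least 68457338). Levels are given in TPM, the share of a gene among all transcripts after division by transcript length, so they can be compared between genes. *Kdm6a* stood at 49.8 and 51.3 TPM in male BC wt and at 51.0 and 51.7 in CB wt. It stood at 11.6 in ΔE1, 13.5 in ΔE3 and 0.0441 in ΔP4, and at 2.07 in ΔE2.5, 7.28 in ΔE2.7 and 0.0364 in ΔP2.1. The exonic deletions leave the other exons, whose reads still count. Every ES cell marker gene measured was present (summed level 6749 to 18268 TPM). The 12 fibroblast markers summed to 15.5 to 143 TPM. *Col1a1* reached 102 TPM (median 8.39), *Thy1* 67.4 (median 14.5) and *Col3a1* 13.1 (median 1.60). *Fap* had a median of 0 and *Lum* stood at no more than 0.464 TPM. Fewer cells of a type and less RNA per cell cannot be told apart in these bulk samples.

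In BC clones, the 3 mitochondrial folate genes were highest in ΔE3 and lowest in ΔE1. *Aldh1l2* (chr10:83487450-83534140 in mm10, minus strand) read 2.36 and 2.15 TPM in wt, 3.17 in ΔE1, 7.67 in ΔE3 and 6.60 in ΔP4. All 3 clones lay above both wt samples, by 1.41-fold, 3.41-fold and 2.93-fold of the wt mean. *Mthfd2* (chr6:83305691-83325908), the dehydrogenase of mitochondrial folate, was more abundant, at 315 and 318 TPM in wt, 329 in ΔE1, 458 in ΔE3 and 407 in ΔP4. It too lay above both wt samples in each clone, but ΔE1 exceeded their mean by only 1.04-fold. *Shmt2* (chr10:127517123-127522444), which takes the carbon of serine into mitochondrial folate, read 365 and 351 TPM in wt, 333 in ΔE1, 559.9 in ΔE3 and 402 in ΔP4. ΔE1 lay below both wt samples and the other clones above them. *Aldh1l2* shares 1056 exonic bases with *D10Wsu102e* on the opposite strand, and the libraries did not record strand, so reads there cannot be assigned to one of the pair.

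**Figure D1:**
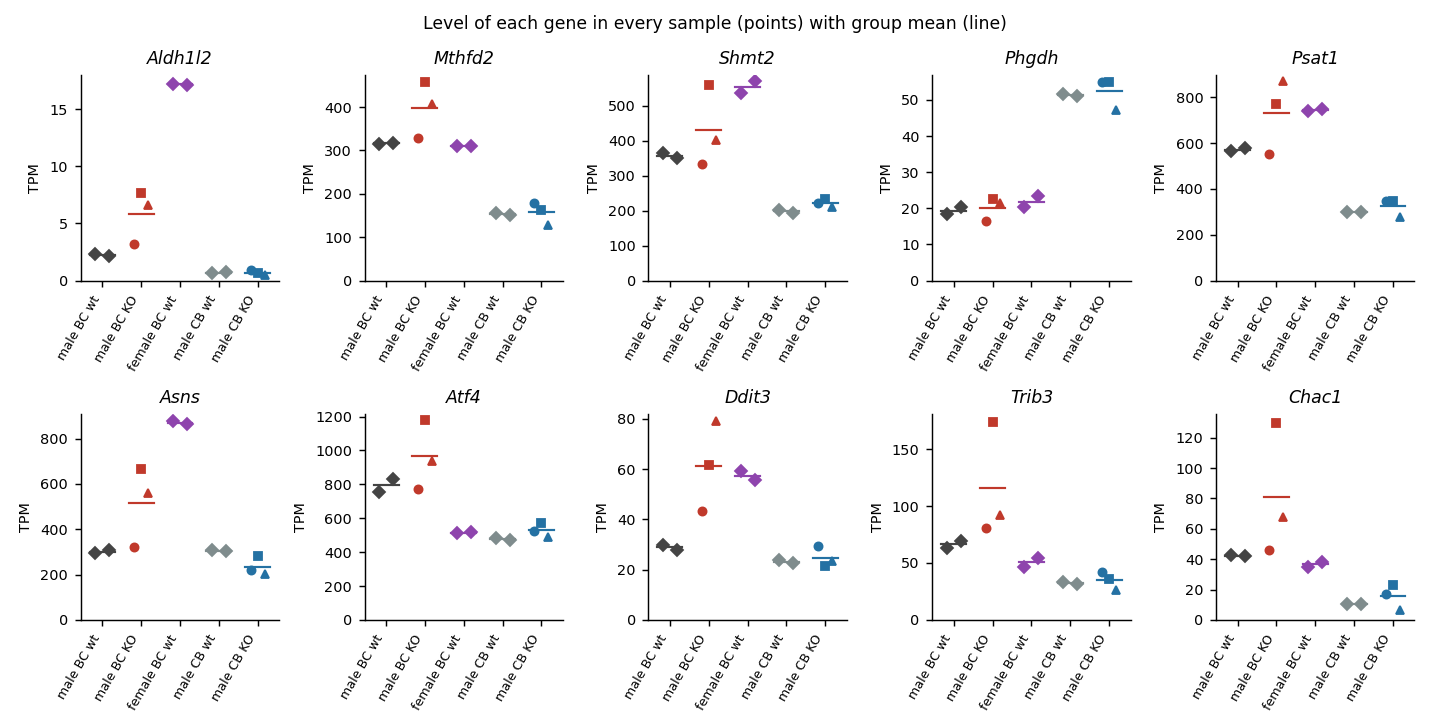
Level of each of the 10 genes (y axis, TPM, starting at 0) in every sample, with one panel per gene, one column per group and a line at the group mean. Markers stand for clones (circle ΔE1 or ΔE2.5, square ΔE3 or ΔE2.7, triangle ΔP4 or ΔP2.1, diamond wt). *Aldh1l2* is near 17 TPM in female wt and at or below 0.907 TPM in all CB samples.

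The serine synthesis genes *Psat1* and *Phgdh* overlapped between BC clones and wt, whereas *Psph* of the wider folate list, described below, lay above wt in every clone. *Psat1* (chr19:15904678-15947337), the aminotransferase step, read 565 and 579 TPM in wt, 553 in ΔE1, 772 in ΔE3 and 869.9 in ΔP4. *Phgdh* (chr3:98313170-98339990), the first step, read 18.5 and 20.3 TPM in wt, 16.4 in ΔE1, 22.5 in ΔE3 and 21.5 in ΔP4, so ΔE1 lay on the low side of wt for both genes. *Asns* (chr6:7675169-7693254), which makes asparagine and is the textbook target of ATF4, read 295 and 309 TPM in wt, 322 in ΔE1, 667 in ΔE3 and 561 in ΔP4. All 3 clones lay above wt, ΔE3 by 2.21-fold and ΔP4 by 1.86-fold but ΔE1 by 1.07-fold. *Phgdh* has 17 annotated pseudogene copies, of which *Gm7901* is 98.75% identical over 84.3% of the transcript, so its level is uncertain in all samples.

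Of the regulators, *Atf4* itself (chr15:80255184-80257541) read 756 and 832 TPM in wt, 773 in ΔE1, 1180.5 in ΔE3 and 939.9 in ΔP4, with ΔE1 between the wt samples. *Ddit3* (chr10:127290774-127296288) read 29.98 and 27.8 TPM in wt, 43.2 in ΔE1, 61.7 in ΔE3 and 79.1 in ΔP4. It was the gene with the largest excess in ΔE1, at 1.49-fold, and one of 2 for which ΔP4 was the highest clone. *Trib3* (chr2:152337422-152344032), a pseudokinase that restrains ATF4 output, read 63.2 and 69.5 TPM in wt, 81.0 in ΔE1, 174 in ΔE3 and 92.5 in ΔP4. *Chac1* (chr2:119351229-119354381), which breaks down glutathione, read 42.7 and 42.1 TPM in wt, 46.1 in ΔE1, 129.6 in ΔE3 and 67.7 in ΔP4. For both, ΔE3 was more than any other sample and the groups did not overlap. *Ddit3* shares 68 exonic bases with *Mars* on the opposite strand.

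By clone, the median log2 ratio of the 10 genes to the wt mean was 0.07 in ΔE1, 0.87 in ΔE3 and 0.54 in ΔP4, beside 0.02, 0.02 and 0.10 over all genes tested. All 10 genes lay above both wt samples in ΔE3 and in ΔP4, and 6 did in ΔE1, where 3 lay below both. Of all genes tested, 45.0% lay above both wt samples in ΔE3, 55.5% in ΔP4 and 44.0% in ΔE1, where 37.7% lay below both. ΔE3 was the highest clone for 8 genes and ΔE1 the lowest for all 10, although both come from a single editing event. The share of all genes with these ranks was not computed, and these clones chose the list, so nothing is read from the ranks. For 6 of the 10 genes all 3 clones lay above both wt samples, and for none below, where 21% and 10.9% of all genes did. Since the list was built around this contrast, nothing is read from that count. Without ΔE3 the fitted median log2 fold change of the 10 genes was 0.29, without ΔE1 it was 0.71, and with all clones 0.52.

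**Figure D2:**
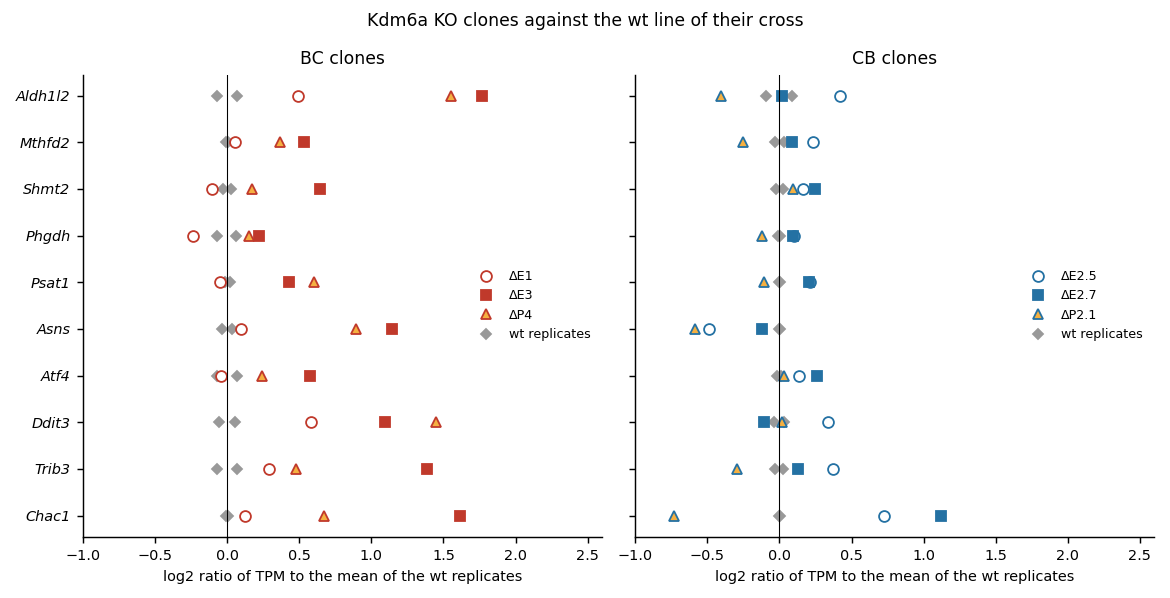
Log2 ratio of TPM in each KO clone to the mean of the wt samples of its cross (x axis), for each of the 10 genes (rows), with BC on the left and CB on the right and grey diamonds for the wt samples. ΔE3 and ΔP4 lie to the right of wt for every gene, ΔE1 is the clone closest to the wt mean for every gene but *Phgdh* and reaches 0.58 for *Ddit3*, and the CB clones spread to both sides.

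Marker levels also differed between the clones. The summed level of the 6 primed epiblast markers was 637 and 624 TPM in BC wt, 456 in ΔE1, 341 in ΔP4 and 224 in ΔE3, the reverse of the order for *Aldh1l2* and the median of the 10 genes. Each of these 6 markers lay below both wt samples in all 3 clones, as did 10.9% of all genes. The summed fibroblast markers were 39.6 and 36.8 TPM in wt, 29.1 in ΔE1, 25.0 in ΔP4 and 15.5 in ΔE3. By gene, 3 of the 7 tested lay above both wt samples in ΔE1 and 3 below (median log2 -0.01). In ΔP4 and ΔE3 5 and 6 of them lay below and 0 above. ES cell markers summed to 9464 and 8181 TPM in wt, 10898 in ΔE1, 10829.7 in ΔE3 and 7941 in ΔP4. By gene, 9, 8 and 5 of 10 lay above both wt samples in ΔE1, ΔE3 and ΔP4, and 1, 0 and 3 below. Of all genes tested, 44.0%, 45.0% and 55.5% lay above both wt samples in these clones and 37.7%, 41.2% and 29.9% below, so the ΔP4 counts are near the share of all genes. Of 7 primitive endoderm markers tested, 6, 5 and 3 lay above in the same order of clones, and 1, 2 and 2 below. The part of these shifts in the values of the 10 genes was not tested.

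The CB clones were not used to choose the genes, so their difference from wt was tested. None of the 9 genes tested was called in CB KO against wt by the edgeR quasi-likelihood test (false discovery rate under 0.05 and at least 1.5-fold), where 0% of 13801 genes were called. DESeq2 called none of them either, against 3.58% of all genes. At an unadjusted p under 0.05, 1 gene was higher and none lower, beside 10% and 10.5% of all genes. That gene was *Shmt2*, at 202 and 195 TPM in wt, 221 in ΔE2.5, 234 in ΔE2.7 and 211 in ΔP2.1 (log2 fold change 0.24 ± 0.08 SE, adjusted p = 0.197). The clones lay above wt without overlap, but the difference did not pass the threshold.

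*Aldh1l2* was low in CB and was left out by the filter of 1 TPM. It read 0.635 and 0.722 TPM in wt, 0.907 in ΔE2.5, 0.687 in ΔE2.7 and 0.511 in ΔP2.1, from 57 to 109 fragments a sample. The KO clones fell on both sides of wt, and a fit without the filter gave a log2 fold change of 0.13 (adjusted p = 0.855). *Mthfd2* read 157 and 150.2 TPM in wt, 180.02 in ΔE2.5, 163 in ΔE2.7 and 129 in ΔP2.1, again on both sides of wt (log2 0.11 ± 0.15 SE). *Psat1* read 299.9 and 301 TPM in wt, 348, 346 and 279.8 in the same order of clones (log2 0.19 ± 0.12). *Phgdh* read 51.6 and 51.1 TPM in wt, 55.1, 54.8 and 47.2 in the clones (log2 0.11 ± 0.10). *Mthfd2*, *Psat1* and *Phgdh* were each above wt in both exonic clones and below it in the promoter clone, short of the threshold.

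*Asns* was the exception in CB. It read 307 and 306 TPM in wt, 218 in ΔE2.5, 281 in ΔE2.7 and 204 in ΔP2.1, so that all clones lay below wt (log2 -0.31 ± 0.16 SE, adjusted p = 0.324). In BC all clones lay above wt, which makes *Asns* the only one of the 10 genes with its KO clones on opposite sides in the 2 crosses. Of 13305 genes tested in both crosses, 9.43% had this pattern, and the difference between crosses was not tested because the BC values chose the list. Among all genes tested in CB, 14.7% had clones that did not overlap wt on the high side and 32.3% on the low side.

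*Atf4* read 481 and 472 TPM in CB wt, 525 in ΔE2.5, 572 in ΔE2.7 and 487 in ΔP2.1, above wt in each clone (log2 0.22 ± 0.10 SE, adjusted p = 0.267). *Ddit3* read 23.8 and 22.7 TPM in wt, 29.3, 21.6 and 23.5 in the clones (log2 0.17 ± 0.17). *Trib3* read 33.1 and 31.9 TPM in wt, 42.0, 35.5 and 26.6 in the clones (log2 0.17 ± 0.20). *Chac1* had the widest spread, with 10.5 and 10.5 TPM in wt, 17.4 in ΔE2.5, 22.9 in ΔE2.7 and 6.34 in ΔP2.1 (log2 0.65 ± 0.52 SE, adjusted p = 0.504). The promoter clone was the one below wt.

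In CB, the median log2 ratio of the 10 genes by clone was 0.22 in ΔE2.5, 0.11 in ΔE2.7 and -0.19 in ΔP2.1, beside medians of -0.07, -0.09 and -0.08 over all genes. ΔP2.1 was the lowest CB clone for 9 of the 10 genes, whereas ΔP4, the BC clone with the same kind of deletion, was never the lowest. The share of all genes with these ranks was not computed. In ΔP2.1, 7 of the 10 genes lay below both wt samples and 2 above, beside 56.2% and 34.9% of all genes. Fibroblast markers summed to 98.1 and 91.9 TPM in CB wt, 33.6 in ΔE2.5, 49.3 in ΔE2.7 and 143 in ΔP2.1, and their part was not tested. The high sum in ΔP2.1 came from few genes, since 2 of the 9 fibroblast markers tested lay above both wt samples there and 4 below (median log2 -0.01). Without ΔP2.1, *Chac1* was called (log2 1.02, adjusted p = 0.0377), at 6.76% of all genes called. The other 8 genes were not called in that fit, and without ΔE2.7 the value for *Chac1* was 0.24 (adjusted p = 0.794).

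The other lists of the pathway, 7 in all, were described in the same clones. Among 18 regulators and outputs of the integrated stress response, edgeR called none in BC, against 0.029% of all genes called. At an unadjusted p under 0.05, 5 were higher and none lower, beside 6.56% and 4.49% of all genes. DESeq2 called 1, *Nupr1*, against 1.88% of all genes. *Nupr1*, a stress-induced chromatin protein, read 17.6 and 19.4 TPM in wt, 26.0 in ΔE1, 59.5 in ΔE3 and 50.2 in ΔP4 (log2 1.25 ± 0.34 SE, edgeR adjusted p = 0.35). *Atf5*, a related factor of the mitochondrial stress response, read 31.1 and 23.5 TPM in wt, 45.7 in ΔE1, 97.5 in ΔE3 and 42.1 in ΔP4. *Atf3*, which acts with ATF4, read 6.74 and 7.23 TPM in wt, 7.46 in ΔE1, 21.3 in ΔE3 and 14.9 in ΔP4. *Vldlr* read 2.48 and 2.63 TPM in wt, 2.85 in ΔE1, 6.71 in ΔE3 and 6.28 in ΔP4. In all 4 the clones lay above wt, with ΔE3 highest, and 7 of 18 genes of the list did not overlap on the high side and none on the low side, beside 21% and 10.9% of all genes.

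Genes for amino acid supply were described next in BC. Of 15 transporters and enzymes of cysteine and glutathione synthesis, 5 had all clones above wt and none below (21% and 10.9% of all genes). None was called by edgeR, with 4 higher and none lower at an unadjusted p under 0.05 (6.56% and 4.49% of all genes), and 1 was called by DESeq2 (1.88%). That 1 was *Slc1a5*, the glutamine carrier, at 149 and 136 TPM in wt, 202 in ΔE1, 255 in ΔE3 and 207 in ΔP4. *Slc7a11*, the cystine carrier, read 0.194 and 0.201 TPM in wt, 0.405 in ΔE1, 1.42 in ΔE3 and 0.337 in ΔP4, so its excess over wt rested mostly on ΔE3. It is 1 of the 5, but it passed the filter of 1 TPM only through ΔE3, and its other values are near the floor. *Cth*, which makes cysteine, read 107 and 113 TPM in wt, 158 in ΔE1, 365 in ΔE3 and 133 in ΔP4. Of 10 proline, glutamate and aspartate genes, edgeR called none (3 higher and 1 lower at an unadjusted p under 0.05) and DESeq2 called *Pycr1*, which makes proline in mitochondria. It read 14.5 and 13.998 TPM in wt, 21.0 in ΔE1, 33.7 in ΔE3 and 30.7 in ΔP4.

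Of 20 cytosolic aminoacyl-tRNA synthetases, 13 had all BC clones above wt and 2, *Farsa* and *Kars*, below (21% and 10.9% of all genes), with a median log2 fold change of 0.22 beside 0.01 over all genes. None was called by either tool, and 5 were higher and 2 lower at an unadjusted p under 0.05. *Cars* read 157 and 161 TPM in wt, 199 in ΔE1, 273 in ΔE3 and 235 in ΔP4, and *Gars* 624 and 674 in wt, 710.3 in ΔE1, 1077 in ΔE3 and 922 in ΔP4. Of the 24 remaining serine, glycine and folate genes tested, 7 had all BC clones below wt (10.9% of all genes) and 4 above (21%), their median log2 fold change was -0.10, and none was called by edgeR (2 higher and 5 lower at an unadjusted p under 0.05). *Aldh1l1*, the cytosolic relative of *Aldh1l2*, was called by DESeq2 alone and read 2.15 and 1.75 TPM in wt, 5.23 in ΔE1, 4.15 in ΔE3 and 3.76 in ΔP4. *Psph*, the last step of serine synthesis, read 79.8 and 89.2 TPM in wt, 101 in ΔE1, 151 in ΔE3 and 139.7 in ΔP4. *Ahcy* and *Mat2a* of the methionine cycle lay below wt, *Mat2a* at 433 and 452 TPM in wt, 402 in ΔE1, 384 in ΔE3 and 303 in ΔP4.

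The lists outside the amino acid branch had medians near 0 in BC. The median log2 fold change was -0.06 over 20 endoplasmic reticulum chaperones and unfolded protein response genes and 0.02 over 10 genes of mitochondrial protein quality control. Of the first list, *Atf6* read 29.0 and 27.1 TPM in wt, 39.5 in ΔE1, 42.5 in ΔE3 and 37.4 in ΔP4, while the chaperone *Hyou1* read 183 and 167 TPM in wt, 149 in ΔE1, 106 in ΔE3 and 147 in ΔP4. Neither list had a gene called by edgeR or DESeq2, and 2 genes of the first were higher and 1 lower at an unadjusted p under 0.05. Without ΔE3, the medians of the integrated stress response, transporter and tRNA synthetase lists in BC were 0.21, 0.07 and 0.11, compared with 0.22, 0.24 and 0.22 with it.

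In CB, edgeR called no gene of these lists. All 20 tRNA synthetases had a log2 fold change above 0 (median 0.18, at 0.01 over all genes), 9 had all clones above wt and none below (14.7% and 32.3% of all genes), and 4 were higher at an unadjusted p under 0.05. *Vars* read 301 and 290.2 TPM in wt, 334 in ΔE2.5, 343 in ΔE2.7 and 343 in ΔP2.1 (log2 0.28 ± 0.07 SE, adjusted p = 0.155). In the transporter and cysteine list 6 of 15 genes lay below wt in all clones and 1 above (32.3% and 14.7% of all genes), with 1 gene higher and 2 lower at an unadjusted p under 0.05. *Cth* read 200.2 and 201 TPM in wt, 104 in ΔE2.5, 125 in ΔE2.7 and 114 in ΔP2.1 (log2 -0.74 ± 0.10 SE, edgeR adjusted p = 0.116) and was called lower by DESeq2 alone. *Slc7a11* read 3.76 and 3.74 TPM in wt, 2.86 in ΔE2.5, 2.72 in ΔE2.7 and 0.223 in ΔP2.1. *Glul*, glutamine synthetase, read 168 and 167 TPM in wt, 449 in ΔE2.5, 348 in ΔE2.7 and 214 in ΔP2.1 (log2 1.09 ± 0.31 SE, edgeR adjusted p = 0.173) and was called higher by DESeq2 alone.

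*Ppp1r15a*, which reverses the phosphorylation of eIF2, read 43.7 and 44.1 TPM in CB wt, 64.4 in ΔE2.5, 56.8 in ΔE2.7 and 65.5 in ΔP2.1 (log2 0.58 ± 0.09 SE, adjusted p = 0.126). It was 1 of 2 stress response genes with all CB clones above wt, where 5 of the 17 tested lay below (14.7% and 32.3% of all genes), among them the kinase *Eif2ak3* at 27.3 and 26.0 TPM in wt and 20.01, 19.6 and 22.9 in the clones. At an unadjusted p under 0.05, 1 gene of that list was higher and 1 lower. Of 25 folate and glycine genes in CB, 8 lay above wt in all clones and 3 below (14.7% and 32.3% of all genes), and 6 were higher and 1 lower at an unadjusted p under 0.05. *Atic*, of purine synthesis, read 395 and 393 TPM in wt, 645 in ΔE2.5, 525 in ΔE2.7 and 435 in ΔP2.1. *Gldc*, of glycine breakdown, read 248 and 244 TPM in wt, 189, 144 and 186 in the clones. Neither passed the threshold (adjusted p = 0.197 and 0.177).

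**Figure D3:**
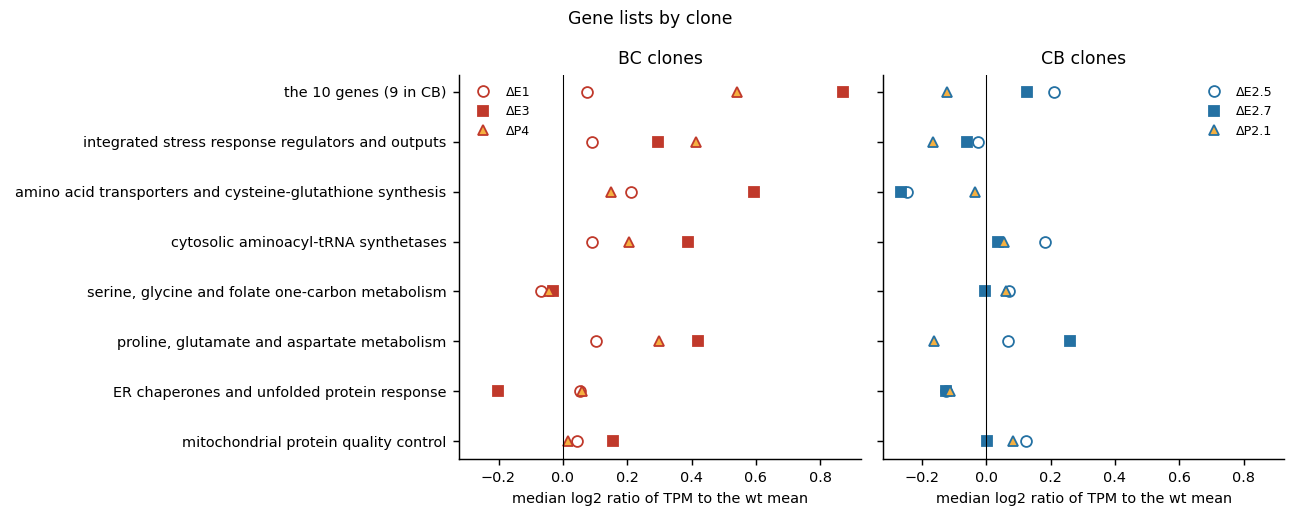
Median log2 ratio of TPM to the wt mean (x axis) over the tested genes of each list (rows), for each BC clone (left) and CB clone (right). In BC the 10 genes reach 0.87 in ΔE3 and the remaining folate list stays between -0.07 and -0.03, and in CB every median lies between -0.27 and 0.26.

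The female BC line offers a second contrast in which *Aldh1l2* was high. It compares a female wt line with 2 X chromosomes and a male wt line with 1. It shares the male BC wt samples with the knockout contrast, so it is not independent of that contrast. X number, cell line and autosomal allele balance cannot be told apart in it. The ratio of autosomal BL6 to cast SNP fragments was 0.837 and 0.835 in female wt and 1.24 and 1.24 in male BC wt. *Aldh1l2* read 17.2 and 17.1 TPM in female wt against 2.36 and 2.15 in male wt, and rose by 2.87 ± 0.08 SE on the log2 scale (adjusted p = 7.3e-10). *Asns* read 876 and 864 TPM against 295 and 309 (log2 1.47 ± 0.07, adjusted p = 1.8e-08) and *Ddit3* 59.0 and 55.5 against 29.98 and 27.8 (log2 0.93 ± 0.08, adjusted p = 1.5e-06). *Atf4* was lower in female cells, at 511 and 517 TPM against 756 and 832 (log2 -0.69 ± 0.08, adjusted p = 9.5e-06). These 4 genes were called, 3 higher and 1 lower, in a comparison where 44.5% of all genes were called, 24.5% higher and 19.9% lower.

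The other 6 genes did not pass both thresholds between female and male wt. *Shmt2* read 538 and 571 TPM in female cells (log2 0.58 ± 0.07), just under 1.5-fold. *Psat1* read 741 and 750.6 TPM (log2 0.33 ± 0.07) and *Phgdh* 20.3 and 23.3 TPM (log2 0.11 ± 0.10). *Mthfd2*, at 311.05 and 311 TPM, was close to male wt (log2 -0.08 ± 0.07, adjusted p = 0.276). *Trib3*, at 46.3 and 54.7 TPM, and *Chac1*, at 35.2 and 38.3 TPM, were on the low side of male wt (log2 -0.45 ± 0.09 and -0.26 ± 0.08). Among the 10 genes, *Aldh1l2* was thus higher in female cells together with *Asns* and *Ddit3*, while *Atf4* was lower. ES cell markers summed to 18268 and 17029 TPM in female cells, with 6 of 10 called higher and none lower, and primed epiblast markers to 236 and 237 TPM, with 5 of 6 called lower. Fibroblast markers summed to 78.7 and 77.8 TPM, but 4 of the 7 tested were called lower and 2 higher. The part of these shifts was not tested.

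Of the other lists in female cells, the stress response outputs had 7 of 18 genes called higher and 1 lower, beside 24.5% and 19.9% of all genes. *Gdf15*, a secreted stress hormone, read 20.1 and 22.4 TPM against 4.29 and 3.99 in male wt (log2 2.30 ± 0.11, adjusted p = 1.5e-08). *Atf5* (log2 1.87), *Nupr1* (1.67), *Ddit4* (1.29), *Vldlr* (0.92), *Eif2ak3* (0.73) and *Stc2* (0.66) were the others that rose, and *Eif2ak1* fell by 0.63. The folate list had 3 genes called higher, *Aldh1l1* (log2 3.39), *Amt* (1.12) and *Psph* (1.06), and 6 lower, of 24 tested, which is under the share of all genes on the high side and near it on the low side. Among the lower ones were *Mthfd2l* (log2 -2.37), *Mat2a* (-2.32), *Ahcy* (-1.46), *Atic* (-0.95) and *Mthfd1* (-0.79). *Aldh1l1* read 21.6 and 20.9 TPM in female wt against 2.15 and 1.75 in male wt, so both paralogs of this dehydrogenase were high in the female line. Of 10 proline, glutamate and aspartate genes, 2 were called higher, *Pycr1* (log2 1.83) and *Pck2* (1.62), and 3 lower, among them *Glul* (-1.48).

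Of 14 transporters and cysteine genes tested in female cells, 5 were called higher (*Slc7a1* 1.27, *Gss* 1.16, *Cbs* 0.70, *Slc1a5* 0.69 and *Cth* 0.67 on the log2 scale) and 4 lower (*Gclc* -1.60, *Slc38a2* -1.19, *Slc38a1* -0.61 and *Gclm* -0.59), beside 24.5% and 19.9% of all genes. Of 20 tRNA synthetases, *Wars* (0.83) and *Sars* (0.62) rose and *Dars* (-0.84) fell. Of 20 chaperone genes *Sdf2l1* (1.39) and *Pdia6* (0.86) rose and *Herpud1* (-0.66) fell, and of 10 mitochondrial genes *Lonp1* (0.69) rose and *Hspd1* (-1.10) fell. In these last 3 lists the called genes were under the share of all genes on both sides.

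The level of the pathway also differed between the wt lines of the 2 crosses. This comparison again uses the male BC wt samples, and cross, cell line, transgene and depth cannot be told apart in it. Of the fibroblast markers 7 of 9 were called lower in BC wt and 1 higher, and of the primitive endoderm markers 5 of 8 were lower and none higher, and their part was not tested. Male BC wt was higher than CB wt for 7 of the 10 genes and lower for 1, where 34.5% of all genes were called, 14.7% higher and 19.8% lower. *Chac1* differed most, at 42.7 and 42.1 TPM against 10.5 and 10.5 (log2 2.08 ± 0.06 SE, adjusted p = 1.2e-06). *Aldh1l2* followed, at 2.36 and 2.15 TPM against 0.635 and 0.722 (log2 1.80 ± 0.12). It passed the filter of 1 TPM only through the BC samples, so its call among the 7 is not read as a result. *Mthfd2* (log2 1.11 ± 0.05), *Trib3* (1.10 ± 0.07), *Psat1* (1.00 ± 0.05), *Shmt2* (0.92 ± 0.04) and *Atf4* (0.80 ± 0.06) were also higher in BC wt. *Ddit3* (0.38 ± 0.07) and *Asns* (0.05 ± 0.05) were not called.

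**Figure D4:**
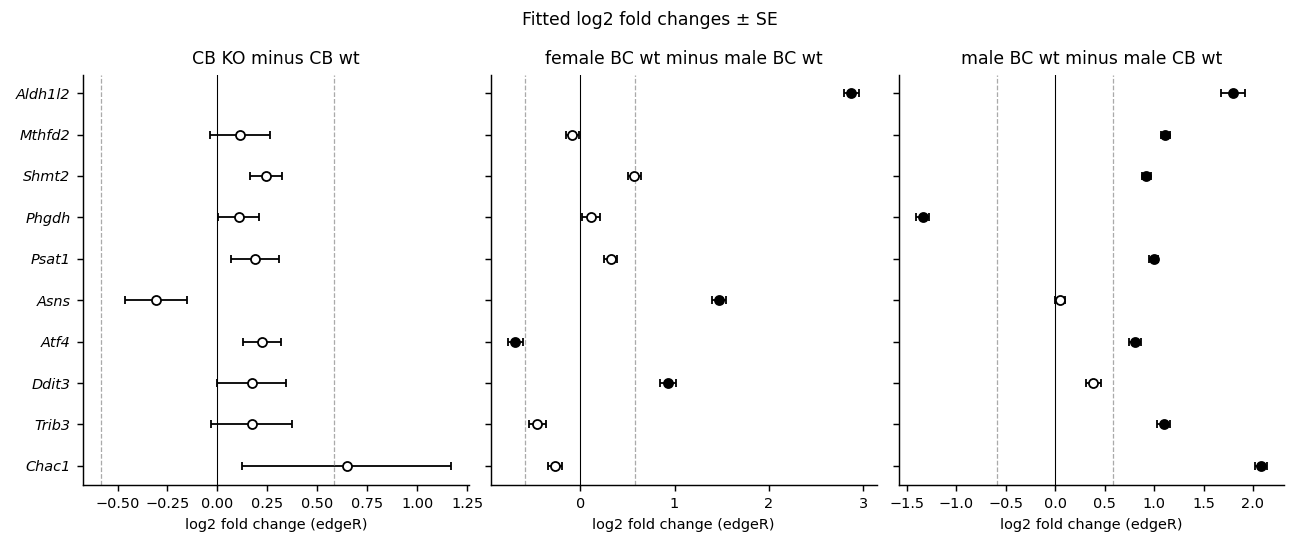
Log2 fold change of each of the 10 genes fitted by edgeR, with bars of 1 SE, in CB KO against CB wt (left), female against male BC wt (middle) and male BC wt against male CB wt (right). Filled points were called, and dashed lines mark 1.5-fold. *Aldh1l2*, under 1 TPM in CB, has no point on the left. No point is filled there, 4 are in the middle and 8 on the right, where *Phgdh* is the one below 0 and takes the opposite sign in counts from the BL6 genome alone.

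*Phgdh* was the gene called lower in BC wt, at 18.5 and 20.3 TPM against 51.6 and 51.1 (log2 -1.34 ± 0.07), but the sign depended on the alignment. In counts from the BL6 genome alone it had 6285 and 6723 fragments in BC wt against 2621 and 2568 in CB wt, a log2 fold change of 0.65 (adjusted p = 3.9e-05). The diploid count of *Phgdh* was 16.0% to 18.1% of its BL6-genome count in BC samples and 68.8% to 72.7% in CB samples. For the other 9 genes it was 93.5% to 100% in both. *Mthfs*, a folate gene outside the 10, showed the same to a greater degree, with 0 diploid fragments in both BC wt samples and 585 and 545 on the BL6 genome, so its difference between crosses is not reported. Of 13326 genes, 168 had a diploid count under 50% of the BL6-genome count in BC wt and not in CB wt, and 5 the reverse.

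Of the 20 tRNA synthetases, 8 were called higher in BC wt than in CB wt and none lower, beside 14.7% and 19.8% of all genes. *Aars* (log2 1.08), *Dars* (0.94) and *Eprs* (0.75) differed most, followed by *Cars* (0.68), *Farsa* (0.65), *Farsb* (0.60), *Sars* (0.59) and *Kars* (0.58). Of the stress response list 6 were higher, *Fgf21* (2.32), *Gdf15* (1.91), *Nupr1* (1.73), *Stc2* (0.95), *Ppp1r15b* (0.79) and *Vldlr* (0.60), and *Atf3* was lower (-1.62). *Atf3* read 22.8 and 22.1 TPM in CB wt against 6.74 and 7.23 in BC wt, the reverse of *Chac1* and *Trib3*. *Slc7a11* was also lower in BC wt (log2 -4.17 ± 0.10, at 0.194 and 0.201 against 3.76 and 3.74 TPM), but it passed the filter only through CB wt. *Cth* was lower too (-0.80), while *Slc6a9* (1.38), *Slc1a5* (1.08), *Slc7a5* (0.92) and *Slc3a2* (0.80) were higher. *Glul* (1.56), *Gpt2* (1.44), *Pycr1* (1.17), *Pck2* (0.91) and *Aldh18a1* (0.90) were higher in BC wt as well. Of the folate list *Psph* (1.00), *Atic* (0.80) and *Shmt1* (0.59) were higher and *Aldh1l1* (-1.73) and *Mthfd2l* (-0.84) lower. Of the chaperones *Herpud1* (1.28) was higher and *Dnajc3* (-0.83), *Dnajb11* (-0.77) and *Edem1* (-0.64) lower.

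Ordered by level, *Aldh1l2* was highest in female BC wt (17.2 ± 0.03 TPM, SD, n = 2), then in BC KO (5.81 ± 2.35, n = 3), BC wt (2.25 ± 0.15, n = 2), CB KO (0.702 ± 0.198, n = 3) and CB wt (0.678 ± 0.0618, n = 2). The last 2 groups overlapped. *Asns* had the order female wt (869.8 ± 8.80), BC KO (517 ± 177), CB wt (306 ± 0.708), BC wt (302 ± 9.80) and CB KO (234 ± 41.2), with both wt groups overlapping. *Atf4* ran differently, with BC KO (964 ± 205) and BC wt (794 ± 53.8) overlapping at the top, then CB KO (528 ± 42.5) and female wt (514 ± 3.78), which also overlapped, and CB wt (477 ± 6.31) at the bottom.

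Fragments that overlap a SNP told the alleles apart for 9 of the 10 genes, and *Ddit3* had none. The BL6 share of these fragments in male samples, corrected for the sample's overall autosomal bias towards BL6 (a ratio of 1.14 to 1.26), lay between 29.4% and 48.5% for the genes other than *Aldh1l2* and *Phgdh*. In CB males, whose only X is cast, 9.94% to 11.5% of X-linked SNP fragments were assigned to BL6. Intervals given here are Wilson 95% intervals of the unadjusted share and cover counting error only. *Aldh1l2* had few such fragments, with a BL6 share of 35.0% (27.0% to 44.0%, 117 fragments) and 37.3% (29.6% to 45.7%, 134) in BC wt, 51.6% (43.9% to 59.2%) in ΔE1, 43.0% (38.3% to 47.9%) in ΔE3 and 46.5% (41.2% to 51.9%) in ΔP4. Both alleles were higher than the wt mean in every BC clone, the maternal BL6 allele by 2.13-fold, 4.21-fold and 3.86-fold and the paternal cast allele by 1.08-fold, 3.04-fold and 2.51-fold in ΔE1, ΔE3 and ΔP4. *Chac1*, *Trib3*, *Asns* and *Mthfd2* likewise lay above the wt mean on both alleles in all 3 BC clones, for example *Asns* in ΔE3 by 2.27-fold on the maternal and 2.18-fold on the paternal allele.

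In CB, where the alleles could be tested, none of the 8 genes tested was called on the maternal or the paternal allele, as was 0% of all genes on either. At an unadjusted p under 0.05 in edgeR there was 1, *Shmt2* on the maternal cast allele (log2 0.29 ± 0.10 SE, adjusted p = 0.329), and DESeq2 called none of the 8. *Asns* gave -0.21 ± 0.15 on the maternal and -0.43 ± 0.18 on the paternal allele. In male wt of both crosses, 29.6% of all genes were called between BL6 and cast alleles and 10.5% between maternal and paternal alleles. The cast allele of *Trib3* was the higher one (log2 BL6 over cast -0.76 ± 0.07). So was that of *Aldh1l2* (-0.98 ± 0.23). *Aldh1l2* passed the filter of 1 TPM only through its cast allele, so its call is not read as a result. *Phgdh* was called for strain (1.41 ± 0.07) and for parent (-0.91 ± 0.07), but its share also moved between BC wt replicates, from 69.7% (65.8% to 73.3%) to 53.6% (49.7% to 57.4%), and its copies make it uncertain. No other of the 9 genes was called for parent of origin.

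The BL6 share in female cells was lowest at *Chac1*, *Asns* and *Atf4*, followed by *Trib3*. *Chac1* had 5 BL6 fragments of 645 in one female sample (0.775%, 0.332% to 1.80%) and 1 of 562 in the other (0.178%, 0.0314% to 1.00%), while male shares were 40.9% to 50.3%. *Asns* had a BL6 share of 11.6% (11.2% to 12.1%) and 12.4% (11.8% to 12.9%), and *Atf4* of 26.2% (24.7% to 27.8%) and 25.9% (24.1% to 27.8%). *Trib3* had 30.7% (28.0% to 33.6%) and 27.6% (24.8% to 30.5%), and the other genes with SNP fragments lay between 41.7% and 70.7%. Genes around *Chac1*, *Asns* and *Atf4* also had lower unadjusted BL6 shares in female than in male BC wt samples. Of 31 genes within 1 Mb of *Chac1*, 21 had an unadjusted BL6 share under 10% in female samples and none in male BC wt. The median was 5.61% against 50.7%. Around *Asns* the median of 7 genes was 15.7% in female and 40.7% in male samples, and around *Atf4* that of 25 genes was 40.2% and 54.6%. The female level of *Chac1* thus came almost wholly from the cast allele, and that of *Asns* was 2.88 times the male BC wt mean with a minor BL6 share.

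**Figure D5:**
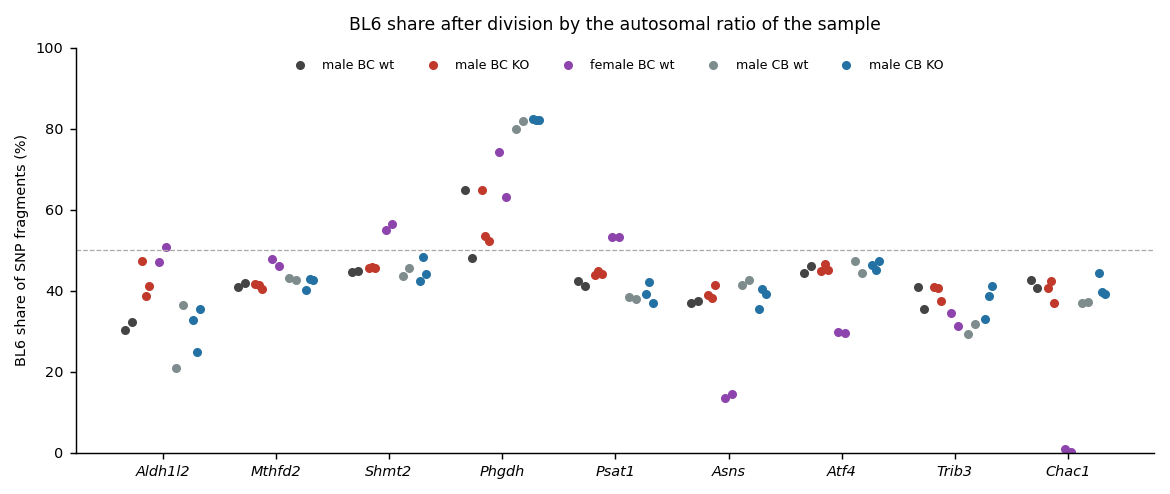
BL6 share of SNP fragments (y axis, %) corrected for the sample's autosomal bias, for 9 of the 10 genes, each point being 1 sample and each colour a group. The autosomal ratio of BL6 to cast was 1.14 to 1.26 in male and 0.837 and 0.835 in female samples. The correction thus lowers male shares and raises female ones. Female samples stand at 0.213% and 0.925% for *Chac1* and at 13.6% and 14.5% for *Asns*, and *Phgdh* spreads from 48.1% to 82.5%.

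Across the 10 male samples, each set against the wt mean of its cross, *Aldh1l2* moved most like *Ddit3* (Pearson r = 0.95), *Asns* (0.91) and *Mthfd2* (0.89), and least like *Phgdh* (0.56). The 10 genes outside the list with the most similar pattern to its mean were *Qsox2* (r = 0.98), *Itpk1*, *Gars*, *LOC106740*, *Elac1*, *Zfp277*, *Atf3*, *Pla2g16*, *Vegfa* and *Lars* (r = 0.96), out of 10715 genes with a mean of at least 5 TPM. Of these, *Gars*, *Lars* and *Atf3* also belong to the lists above. These values describe 10 samples from 2 lines and carry no test. The wt samples lie near 0 by construction. The mean of the 10 genes spread most among the BC clones, at 0.11 in ΔE1, 0.90 in ΔE3 and 0.62 in ΔP4. Those clones chose the list, so the likeness in part restates that choice.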

How the data were processed

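The authors deposited, per sample, estimated count values per gene without normalization. By the study's methods, diploid expression came from TopHat. For alleles, reads were aligned with bowtie (Bowtie2 2.2.5 in the submitters' processing notes) to the BL6 genome (mm10) and to a pseudo-cast genome, uniquely mapped reads of high quality were kept, and reads over SNPs were split by strain. The deposited diploid count was the measure used, with counts from the BL6 genome alone as an alternative and SNP counts for alleles.

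TPM was computed from transcript lengths of the GENCODE annotation of mm10 (23310 of 24346 genes matched by symbol, the median of 2283.5 bp for the rest). Rounded counts were tested with edgeR 4.0.16 (quasi-likelihood, TMM, Benjamini-Hochberg over all genes tested) in R 4.3.3, keeping genes that exceeded 1 TPM in any sample compared. A gene was called at a false discovery rate under 0.05 and at least 1.5-fold. DESeq2 1.42.0 and limma 3.58.1 were alternatives. *Sh3kbp1*, *Map3k15* and *Pdha1* were left out in BC. Alleles in male wt were fitted with sample, strain and parent as terms. The edgeR and DESeq2 fits were also run on simulated counts with the same dispersion for every gene. BC KO and the alleles were not simulated, and the runs do not cover clones that differ from each other. Wt replicates differed by more than sampling noise, to an unequal degree. The median chi-square per gene was 2.78 in male BC wt, 1.88 in female BC wt and 0.70 in male CB wt.

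The genes and lists were chosen with earlier results of these data known, and lists were described by counts and medians. A few genes of the lists count in the totals but are not reported here by name. Other genes named are those called, or else up to 4 a list with the smallest unadjusted p or with all clones on one side of wt. A fold change is a fitted log2 value unless given as a ratio of TPM. Pairing of replicate numbers, other normalizations and filters, and left-out samples were tried as alternatives.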

Additional observations from a re-analysis of the deposited data

Results flagged for a closer look

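For 13 genes of the lists described here, every KO clone of one cross lay on one side of both wt samples and every clone of the other cross on the opposite side. The difference in log2 ratio of TPM, BC minus CB, was 1.161 for *Asns*, the one of the 10 genes. Among the stress and supply genes it was 2.824 for *Slc7a11*, 1.808 for *Cth*, 1.751 for *Aldh1l1*, 1.24 for *Atf3*, 1.202 for *Pck2*, 0.893 for *Slc1a4*, 0.744 for *Slc7a1* and 0.209 for *Dnaja3*, all higher in BC KO and lower in CB KO. It was -0.673 for *Atic*, -0.664 for *Hspd1*, -0.424 for *Shmt1* and -0.41 for *Kars*, lower in BC KO and higher in CB KO. None of these differences was tested, and *Slc7a11* was under 1 TPM in every male BC sample but ΔE3. Of all genes tested in both crosses, 9.43% had such a pattern. In CB, a change of scale matters here, since the median gene read -0.07 to -0.09 on the log2 scale in TPM.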

How the results depend on the processing

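Of 13801 genes, the number called in CB KO against wt rose from 0 to 494 with DESeq2, to 54 with all 12 samples in the fit and to 927 without the promoter clone ΔP2.1, and stayed at 0 without any other sample; of the 10 genes 0 to 1 were called. In BC KO the 4 genes called became 260 with DESeq2, 54 with all 12 samples and 1 to 4 with a sample left out. On the maternal CB allele 115 genes were called with DESeq2 and 0 to 59 with a sample left out, and on the paternal allele 122 and 0 to 41, the highest values again without ΔP2.1. The median difference of the 10 genes between BC and CB wt, 0.959, became 0.873 with quantile normalization, 0.974 without a filter, 0.909 above 5 TPM, 0.972 with all 12 samples and 0.922 on the BL6 genome alone. Signs turned for *Phgdh* between wt lines on the BL6 genome alone (0.648), and with quantile normalization for *Mthfd2* in female cells (0.0734) and *Asns* between wt lines (-0.00953), both uncalled. With a sample left out, the maternal CB allele ranged from -0.104 to 0.0558 for *Phgdh* and from -0.253 to 0.212 for *Trib3*, and the parental difference of *Aldh1l2* from -0.204 to 0.356. With quantile normalization *Atf4* in female cells (-0.57) was under 1.5-fold, and *Shmt2* in female cells (0.70) and *Ddit3* between wt lines (0.65) were past it; *Shmt2* was also past it above 5 TPM (0.61) and without male BC wt replicate 1 (0.59) or female replicate 1 (0.63). The causes were not tested. With replicate number as a block, 6283 genes were called in female against male cells (6247 without it) and 4825 between wt lines (4773), with 4 and 8 of the 10 genes in both fits; the labels give no pairing beyond the number, and the correlations of same-numbered deviations were 0.24 and 0.10. Depth limits *Aldh1l2* in CB, with 13 to 42 SNP fragments a sample.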
